A study of Mus musculus with 9 samples.

Results

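The 6 genes described here encode the proteins through which stromal cells of the bone marrow govern osteoclast formation: Tnfsf11 (RANKL), Tnfrsf11b (osteoprotegerin), Csf1, Il34, Lrrc17 and Il6. They were found by gene symbol in the deposited table, which lists 54532 genes, and each symbol occurred once. ST2 cells, a mouse bone marrow stromal line, were cultured for 72 h in vehicle, in 50 ng/ml recombinant human Wnt3a (rhWnt3a), or in rhWnt3a plus 20 µM OSMI, an inhibitor of the O-GlcNAc transferase OGT. The question was how the transcriptome of these cells changes with rhWnt3a and with OSMI added to it. Poly-A RNA was sequenced in 3 libraries a group, 9 in all. The titles name the group that received OSMI as rhWnt3a with OSMI, whereas its treatment label names OSMI alone and gives no dose of rhWnt3a. The group was taken as titled, no title names OSMI without rhWnt3a, and each pair of the 3 comparisons below shares the libraries of 1 group. All libraries come from 1 established wild-type line, and the labels do not say whether replicates were separate cultures. The p-values therefore measure the spread between these libraries.

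Osteoclasts arise by fusion of myeloid precursors. CSF1 and IL-34, the ligands of the receptor CSF1R, keep these precursors alive and dividing, and RANKL, which binds RANK (Tnfrsf11a) on their surface, drives them to differentiate. Osteoprotegerin is a secreted decoy that captures RANKL, LRRC17 is a secreted leucine-rich protein known to restrain RANKL signalling, and IL-6 acts on stromal cells through gp130 to raise RANKL. ST2 cells are known to support osteoclast formation in co-culture once vitamin D and a glucocorticoid have raised RANKL. Neither agent is among the treatments in the labels. In osteoblasts, β-catenin signalling is known to raise osteoprotegerin.

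The libraries held 16135898 to 17583945 counted reads. Levels of 1 gene are given as CPM, the library's reads scaled to a common total by TMM, and levels of different genes are compared as the deposited FPKM, which are per length. Of the 6 genes, 5 passed the filter on low counts and were tested with edgeR's quasi-likelihood test among 14004 genes. A change counted as called where the adjusted p was below 0.05 and its size exceeded 0.5 on the log2 scale. In each group 1 library stood apart from the others over all genes (vehicle replicate 3, rhWnt3a replicate 2 and rhWnt3a with OSMI replicate 3), with mean squared log2 differences of 0.373 to 0.454 against 0.111 to 0.119 within the remaining pair, so the main results are also given without these 3. Of 10 stromal markers 9 passed the filter, with Thy1 at or near 0, and their summed level was 20800 to 27400 CPM with vehicle, 17300 to 20400 with rhWnt3a and 8810 to 17200 with OSMI added. Col1a1 and Col1a2 carried most of that sum, at means of 10100 and 9350 CPM with vehicle. With rhWnt3a against vehicle 1 of the 9 was called higher and 3 lower. OSMI over rhWnt3a called 0 higher and 3 lower, and rhWnt3a with OSMI against vehicle 1 higher and 5 lower. These are 44.4%, 33.3% and 66.7%, beside 8.78%, 4.74% and 14.2% of all tested genes. Prrx1 was called higher in both groups given rhWnt3a (139, 256 and 246 CPM), and Pdgfrb was called in no comparison (876, 847 and 798 CPM). Ly6a (51.1, 17.7 and 5.33 CPM) and Vcam1 (115, 60.4 and 31.2 CPM) were called lower in all 3 comparisons. Of 15 markers of myeloid cells and osteoclasts, 3 passed (Cd68, Ctsk and Mmp9), with summed levels of 80.2 to 129, 115 to 167 and 37.8 to 59.7 CPM, nearly all from Ctsk (means of 95.4, 131 and 47.8 CPM). Itgam, Dcstamp and Tnfrsf11a had no read in any library, and none of 4 lymphoid, 3 endothelial, 2 epithelial and 2 fat markers passed. The part of these marker levels in the results was not tested. In bulk RNA, fewer cells that express a gene and less RNA per cell cannot be told apart. Axin2, a standard target of β-catenin signalling, had 4, 14 and 10 reads with vehicle, 355, 296 and 315 with rhWnt3a, and 203, 185 and 297 with OSMI added.

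rhWnt3a lowered osteoprotegerin and left the other tested genes uncalled, and OSMI on top of rhWnt3a raised Csf1 and lowered Lrrc17. For rhWnt3a against vehicle 1 of the 5 tested genes was called, lower, beside 8.78% of all tested genes (2.92% higher and 5.86% lower). For rhWnt3a with OSMI against rhWnt3a 2 were called, 1 higher and 1 lower, beside 4.74% (1.69% higher and 3.05% lower). For rhWnt3a with OSMI against vehicle 4 were called, 1 higher and 3 lower, beside 14.2% (4.84% higher and 9.34% lower). The libraries of the groups did not overlap in 26.4%, 33.7% and 38.8% of all tested genes in these comparisons. The median log2 fold changes of the 5 were -0.23, -0.23 and -1, beside 0.04, -0.01 and -0.01 over all tested genes. The 6 genes were chosen with earlier results of these data known, so these counts and medians describe the chosen genes only. By mean FPKM the order in every group began with Csf1, Tnfrsf11b and Il34. In that order the vehicle means were 127, 40.4 and 17.4, the rhWnt3a means 117, 16.5 and 14.8, and those with OSMI 297, 20.2 and 12.6. With rhWnt3a, Tnfrsf11b at 15.2 to 18.5 and Il34 at 13.2 to 16.3 FPKM overlapped, so these neighbours were not separated. Il6 (1.05 FPKM) and Lrrc17 (0.637) lay far lower with vehicle, their libraries overlapping.

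**Figure D1:**
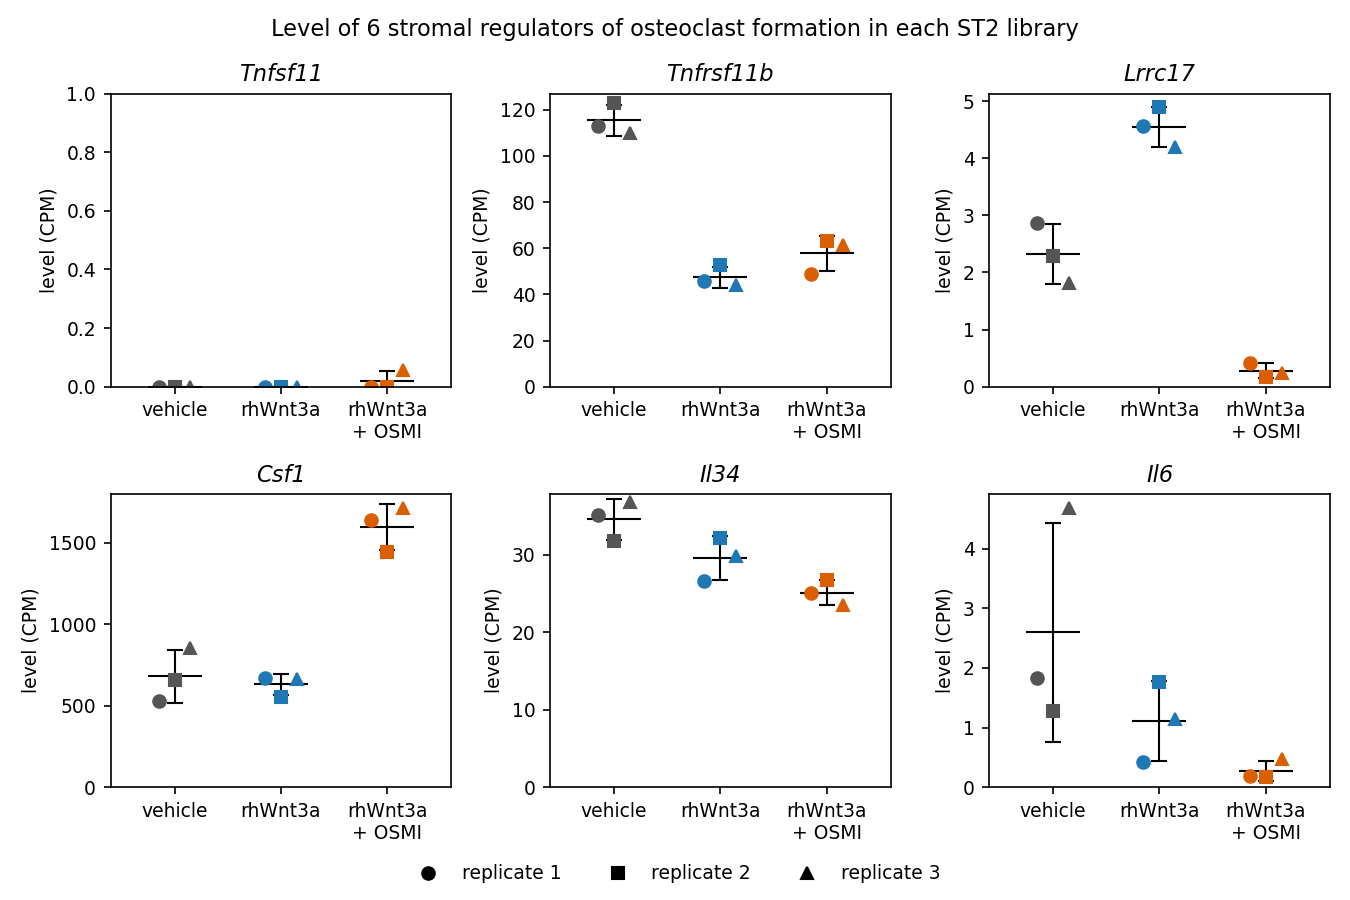
Levels of the 6 genes in each of the 9 libraries, one panel a gene, with CPM on the vertical axis and the groups along the horizontal axis; each marker is a library, its shape the replicate number, and lines with whiskers are group means ± SD. Tnfrsf11b is lower in all 6 libraries with rhWnt3a, Csf1 higher in the 3 libraries with OSMI, and Lrrc17 lowest in these 3.

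Tnfsf11, the membrane-bound ligand that starts osteoclast differentiation, lies on the minus strand of chr14:78277445-78308043 (GRCm38). It had 0 reads in all 3 vehicle libraries and all 3 rhWnt3a libraries, and 0, 0 and 1 read with rhWnt3a and OSMI. A count of 0 allows a level of up to 3 counts, or 0.170 to 0.191 CPM in these libraries, which covers counting error only. Tnfsf11 was therefore not detectable at this depth and no fold is given. Its decoy was plentiful. Per base of gene length, Tnfrsf11b had at least 490-fold to 514-fold more reads in the vehicle libraries than Tnfsf11 at that limit of 3 counts, at least 194-fold to 245-fold more with rhWnt3a, and at least 214-fold and 290-fold more in the 2 libraries with OSMI that had no Tnfsf11 read.

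Tnfrsf11b (ENSMUSG00000063727, chr15:54250619-54278484, minus strand) fell with rhWnt3a. Its levels were 113, 123 and 110 CPM in the vehicle libraries, 45.9, 52.6 and 43.9 CPM in the rhWnt3a libraries, and 48.9, 63.0 and 61.4 CPM once OSMI was added. All vehicle libraries were above all others, and the 2 groups given rhWnt3a overlapped. With rhWnt3a the log2 fold change against vehicle was -1.28 (SE 0.14, 95% interval -1.59 to -0.97, edgeR adjusted p = 0.000388), a 2.43-fold lower level. With OSMI added it stayed 2-fold below vehicle, at -1 (SE 0.14, edgeR adjusted p = 0.00125). The difference that OSMI made was 0.28, with an interval of -0.02 to 0.59 and an edgeR adjusted p of 0.254. The genes whose log2 CPM followed it most closely over the 9 libraries, by Pearson's r as a description, were Galnt18 (0.983), Fst (0.983), which encodes the activin antagonist follistatin, and F3 (0.982), which encodes tissue factor. Libraries share depth and treatment in these correlations.

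Lrrc17 (ENSMUSG00000039883, chr5:21543559-21575904, plus strand) was rare with vehicle and close to the limit of detection with OSMI. The counts were 47, 36 and 32 with vehicle, 75, 86 and 70 with rhWnt3a, and 7, 3 and 4 with OSMI added, which are 2.87, 2.29 and 1.81 CPM, then 4.56, 4.89 and 4.19, then 0.423, 0.172 and 0.233. No group overlapped another: every rhWnt3a library was highest and every library with OSMI lowest. With OSMI the level fell by 4.01 on the log2 scale relative to rhWnt3a (SE 0.38, 95% interval -4.86 to -3.16, edgeR adjusted p = 0.000796), which put it 10th by size of change among the tested genes. With rhWnt3a and OSMI together it was 3.05 below vehicle (SE 0.39, edgeR adjusted p = 0.000507), an 8.26-fold lower level. The higher level with rhWnt3a, by 0.97 (SE 0.27, interval 0.36 to 1.57), had an edgeR adjusted p of 0.0551 and was not called. Over the 9 fits without 1 library the same difference had an edgeR adjusted p of 0.0495 to 0.173, and 8 of the 9 gave no call. The lowest came without rhWnt3a with OSMI replicate 3, a library outside this comparison. The exons share 161 bases (4.46%) with Fbxl13 on the opposite strand, and since strand in the counting is not stated, reads there cannot be told apart. Nearest in pattern were Sord (r = 0.988), which encodes sorbitol dehydrogenase, Zfp414 (0.979) and Plpp5 (0.975).

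Csf1 (ENSMUSG00000014599, chr3:107741048-107760469, minus strand) was the most abundant of the 6, at the 97.9th percentile of FPKM among tested genes with vehicle and the 99.6th with OSMI. Vehicle libraries had 527, 659 and 852 CPM, rhWnt3a libraries 671, 553 and 665, and those with rhWnt3a and OSMI 1640, 1440 and 1710. Vehicle and rhWnt3a overlapped, and the lowest library with OSMI was above the highest of either. OSMI raised Csf1 by 1.34 on the log2 scale over rhWnt3a (SE 0.19, 95% interval 0.91 to 1.77, edgeR adjusted p = 0.00596), or 2.53-fold. With rhWnt3a and OSMI together Csf1 was 1.23 above vehicle (SE 0.19, edgeR adjusted p = 0.00247), or 2.35-fold. That second difference combines both agents, since no library is titled OSMI alone. rhWnt3a against vehicle gave -0.11, with an interval of -0.54 to 0.32 and an edgeR adjusted p of 0.848. Vehicle replicate 3 held the highest Csf1 of its group, and without that library the difference was 0.09 (adjusted p = 0.808). Among the genes nearest in pattern were Akap1 (r = 0.987), which encodes a mitochondrial anchor of protein kinase A, and Taf15 (0.971).

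Il34 (ENSMUSG00000031750, chr8:110741829-110805924, minus strand), the other ligand of CSF1R, was called in no comparison. It had 35.1, 31.7 and 36.8 CPM with vehicle, 26.6, 32.2 and 29.8 with rhWnt3a, and 25.0, 26.7 and 23.5 with OSMI added. The vehicle libraries were all above those with OSMI, and the rhWnt3a libraries overlapped both. Relative to vehicle, the difference with rhWnt3a and OSMI was -0.46 (SE 0.13, 95% interval -0.75 to -0.17, edgeR adjusted p = 0.0393), which is within the fold threshold and so was not called. Each single step had a difference of -0.23, with edgeR adjusted p of 0.402 for rhWnt3a and 0.309 for OSMI on top of it. Exons of Il34 share 22 bases with the antisense gene Gm15894 and 75 (3.83%) with Gm15895. Nearest in pattern were Zfp979 (r = 0.986), Lgmn (0.983), which encodes the protease legumain, and Ugp2 (0.981), an enzyme of UDP-glucose synthesis.

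Taken per length, Csf1 outweighed Il34 in every library. The ratio of Csf1 to Il34 FPKM was 5.57, 7.72 and 8.59 with vehicle, 9.36, 6.37 and 8.27 with rhWnt3a, and 24.3, 20.0 and 27.0 with OSMI added. Vehicle and rhWnt3a overlapped, and the libraries with OSMI lay above both. The summed FPKM of the ligands was 144 ± 29.8 with vehicle, 131 ± 9.81 with rhWnt3a and 310 ± 29.8 with rhWnt3a and OSMI (SD, n = 3). Csf1 made up 87.6%, 88.7% and 95.9% of these sums on average. No test was run on the ratio, for which the smallest exact permutation p of 3 against 3 libraries is 0.1. The receptor itself, Csf1r, had 0 to 6 reads a library.

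**Figure D2:**
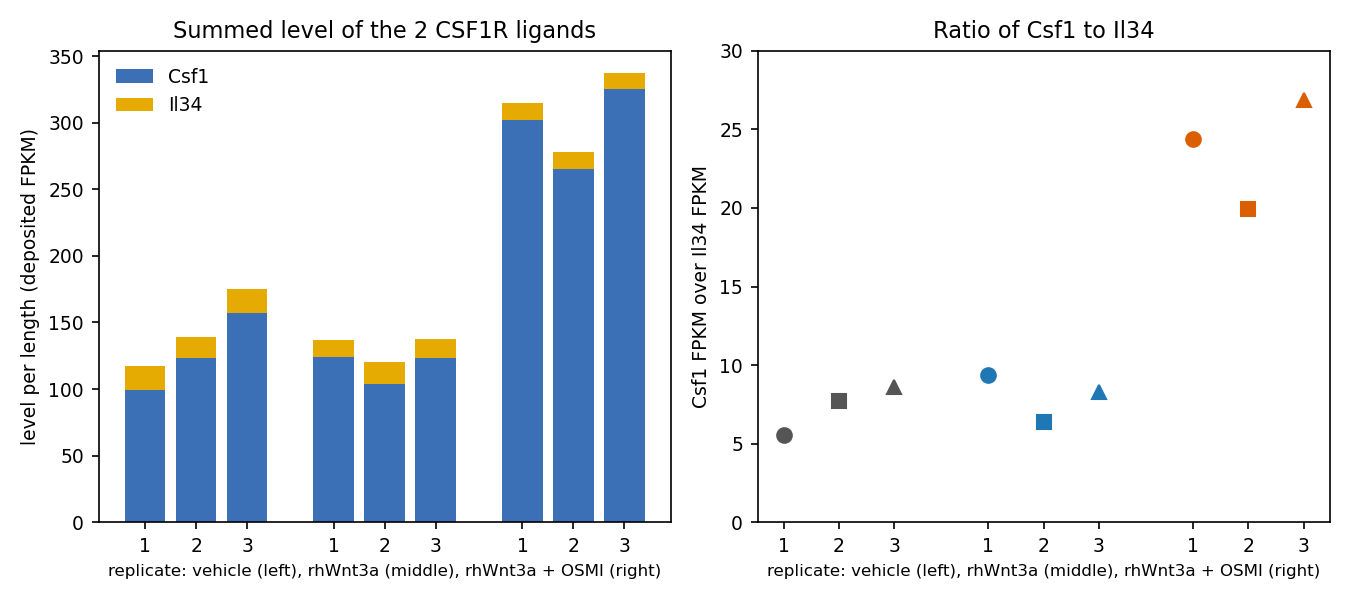
Stacked bars give the deposited FPKM of Csf1 and Il34 in each library (left), and markers the ratio of Csf1 to Il34 FPKM (right), with replicates along the horizontal axis in 3 groups. Csf1 is 265 to 325 FPKM in the libraries with OSMI, while Il34 is 12.1 to 13.3 there.

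Il6 (ENSMUSG00000025746, chr5:30013114-30019981, plus strand) was low and varied most between replicates. Its counts were 30, 20 and 83 with vehicle, 7, 31 and 19 with rhWnt3a, and 3, 3 and 8 with OSMI added, or 1.83, 1.27 and 4.69 CPM, then 0.426, 1.76 and 1.14, then 0.181, 0.172 and 0.466. The vehicle libraries lay above those with OSMI, and the rhWnt3a libraries overlapped both. With OSMI added, replicates 1 and 2 were at the limit of 3 counts, so the sizes of the falls there rest on few reads. In each group the library with the most Il6 was the one that stood apart over all genes, and the part of that in the results was not tested beyond leaving these libraries out. Il6 fell by 3.22 on the log2 scale with rhWnt3a and OSMI against vehicle (SE 0.76, 95% interval -4.91 to -1.54, edgeR adjusted p = 0.0135). That call was lost without rhWnt3a with OSMI replicate 1 (-2.97, adjusted p = 0.0581) or replicate 2 (-2.94, adjusted p = 0.0579), and without vehicle replicate 3 the change was -2.47 (adjusted p = 0.0358). Against rhWnt3a, OSMI gave -2 (interval -3.74 to -0.25, edgeR adjusted p = 0.151). rhWnt3a against vehicle gave -1.23 (interval -2.55 to 0.10, adjusted p = 0.295), and -0.48 without vehicle replicate 3. Nearest in pattern were Rbm43 (r = 0.975), Ier5l (0.969) and Fam213a (0.960).

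**Figure D3:**
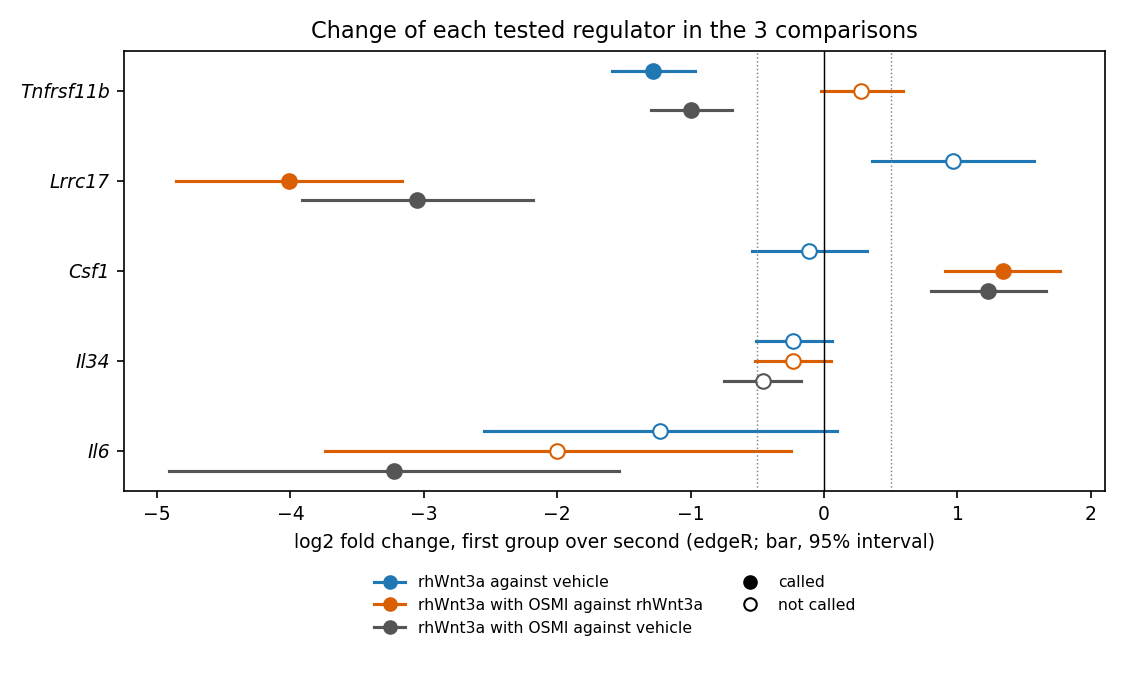
Log2 fold change of the 5 tested genes in the 3 comparisons, with 95% intervals from the edgeR fit as horizontal bars and filled markers where called; dotted lines mark -0.5 and 0.5. Lrrc17 is at -4.01 and Csf1 at 1.34 for OSMI on top of rhWnt3a, and Tnfrsf11b at -1.28 for rhWnt3a against vehicle.

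Without the 3 libraries that stood apart, the changes above kept their direction except for Csf1 with rhWnt3a, which was 0.14 (edgeR adjusted p = 0.246). In that fit Il6 was called for OSMI on top of rhWnt3a (-2.11, adjusted p = 0.0292). Across all 18 alternatives tried, the fall of Tnfrsf11b with rhWnt3a was called each time at -1.43 to -1.21, the rise of Csf1 with OSMI over rhWnt3a at 1.20 to 1.44, and the fall of Lrrc17 in that comparison at -4.41 to -3.74. The alternatives with no fold threshold and with unadjusted p keep the main fit and loosen the call rule. A call of the main fit could not be lost in them.

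The stretches before the start sites of the called genes are shown for the 3 genes that were called with OSMI and have an entry, of which Csf1 was higher and the others lower. The RefSeq promoter table of GRCm38.p6 held 4 of the 6 genes, and Tnfrsf11b and Il34 are named only. The 250 bases before each start are printed 5′ to 3′ on the strand of the gene, for Csf1 at chr3:107760470-107760719 (minus strand), for Lrrc17 at chr5:21543277-21543526 (plus strand) and for Il6 at chr5:30012864-30013113 (plus strand), and capitals mark matches to the searched motifs.
Csf1: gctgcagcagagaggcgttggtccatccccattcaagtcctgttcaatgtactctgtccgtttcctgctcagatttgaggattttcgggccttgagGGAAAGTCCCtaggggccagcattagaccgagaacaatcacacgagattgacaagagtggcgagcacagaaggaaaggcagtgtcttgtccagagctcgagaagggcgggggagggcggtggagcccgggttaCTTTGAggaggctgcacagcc
Lrrc17: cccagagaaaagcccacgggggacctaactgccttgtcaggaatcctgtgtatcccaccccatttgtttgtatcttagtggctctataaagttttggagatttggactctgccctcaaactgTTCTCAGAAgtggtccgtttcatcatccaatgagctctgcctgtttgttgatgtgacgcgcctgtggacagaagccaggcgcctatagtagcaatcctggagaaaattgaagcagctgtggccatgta
Il6: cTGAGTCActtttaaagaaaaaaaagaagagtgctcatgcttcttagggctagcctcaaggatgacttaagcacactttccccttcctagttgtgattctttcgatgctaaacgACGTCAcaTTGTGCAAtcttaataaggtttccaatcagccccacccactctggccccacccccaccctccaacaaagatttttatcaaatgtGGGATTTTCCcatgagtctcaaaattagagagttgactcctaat

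The motifs were searched on both strands as AP-1 TGANTCA, the NF-kB consensus, C/EBP TTNNGCAA, CRE TGACGTCA and its shorter form TGACGT, TCF/LEF CTTTGA and STAT TTCNNNGAA, and the shorter CRE form lies within the longer. The window of Il6 held 4: AP-1 starting 249 bases before the start site, the shorter CRE form at 136, C/EBP at 128 and NF-kB at 44. That of Csf1 held NF-kB at 154 and TCF/LEF at 21, and that of Lrrc17 held STAT at 128. The window of Tnfsf11 held none of these letters. Among 32817 promoters of the same length, AP-1 occurred in 6.75%, NF-kB in 0.357%, C/EBP in 9.57%, the shorter CRE form in 6.46%, the longer in 1.55%, TCF/LEF in 13.8% and STAT in 7.01%. A match describes the letters of the window and was not tested as a binding site.

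Around these 6 genes, 93 genes of the same pathways were listed, of which 74 were tested: receptors for hormones and cytokines that act on stromal cells, the gp130 family, other secreted factors of osteoclastogenesis, sheddases, receptors and binding partners, and transcription factors. rhWnt3a against vehicle called 35 of them (17 higher and 18 lower), OSMI on top of rhWnt3a 17 (7 higher and 10 lower), and rhWnt3a with OSMI against vehicle 30 (10 higher and 20 lower). These are 47.3%, 23.0% and 40.5% of those tested, beside 8.78%, 4.74% and 14.2% of all tested genes. Their median log2 fold changes were -0.13, -0.10 and -0.04. The lists were drawn up for bone stromal cells with results of these libraries known, so the shares describe the lists. The same shares of all tested genes stand beside the counts of each single list below.

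**Figure D4:**
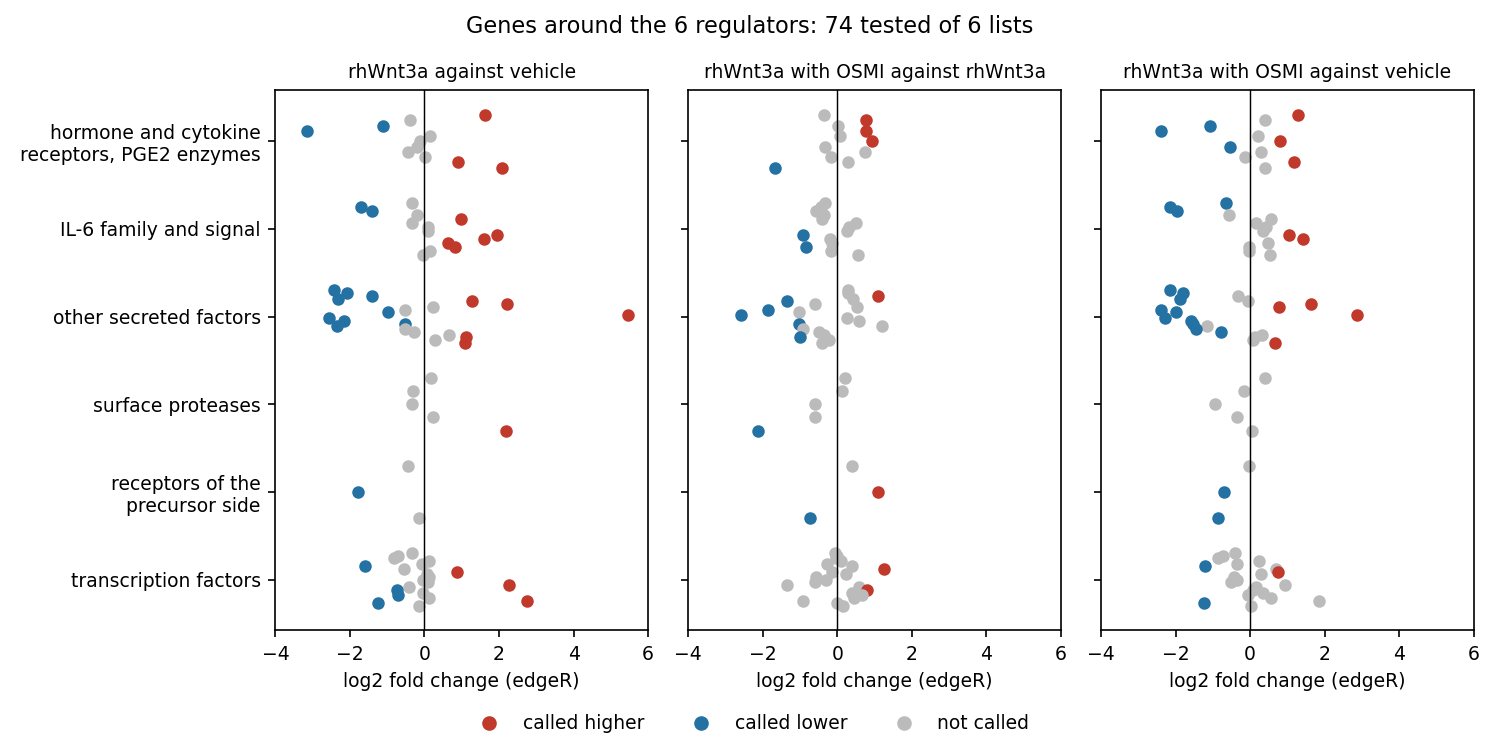
Log2 fold change of the tested genes of the related lists in the 3 comparisons, with a point for each gene in its list, red where called higher, blue where called lower and grey where not called. For rhWnt3a against vehicle Il1rap is at -3.16, and the rightmost point is the fitted value of Il33, which is no bound because its vehicle libraries had at most 2 reads.

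Among receptors for hormones and cytokines, 5 of 11 tested were called with rhWnt3a, 3 higher and 2 lower. Vdr, the vitamin D receptor through which that hormone raises Tnfsf11, had 375, 397 and 509 reads with vehicle, 2127, 1355 and 1990 with rhWnt3a, and 424, 420 and 887 with OSMI added, so the rhWnt3a libraries lay above all others. It rose by 2.08 on the log2 scale with rhWnt3a (SE 0.30, edgeR adjusted p = 0.00218) and fell by 1.68 when OSMI was added (adjusted p = 0.0146), the latter call being lost without rhWnt3a replicate 1 or 3 or rhWnt3a with OSMI replicate 1 or 2 (-1.61 to -1.45). Il1rap, the accessory chain of the IL-1 and IL-33 receptors, fell by 3.16 with rhWnt3a (edgeR adjusted p = 3.58e-06), and Il1r1, the IL-1 receptor, by 1.11 (adjusted p = 0.0012). Esr1, an oestrogen receptor, rose by 1.63 and Tnfrsf1b, a TNF receptor, by 0.91. With OSMI over rhWnt3a, 4 of the 11 were called. Besides Vdr these were Ptger4 (0.93), a receptor of prostaglandin E2, Il17ra (0.78) and Il1rap (0.77). Against vehicle, rhWnt3a with OSMI called 6, with Il1rap at -2.39, Il1r1 at -1.09, Ptges (a prostaglandin E synthase) at -0.55, Esr1 at 1.28, Tnfrsf1b at 1.19 and Ptger4 at 0.80.

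In the gp130 family, to which Il6 belongs, 7 of 14 tested genes were called with rhWnt3a, 5 higher and 2 lower. Lif, a cytokine of the family, had 70, 86 and 120 reads with vehicle, 335, 351 and 399 with rhWnt3a and 189, 161 and 225 with OSMI added. The 3 groups did not overlap. It rose by 1.95 with rhWnt3a (SE 0.20, edgeR adjusted p = 0.000333) and stood 1.03 above vehicle with OSMI added (adjusted p = 0.00877). Its receptor Lifr rose by 1.60 and Il6ra, the IL-6 receptor, by 0.97 with rhWnt3a, whereas the ligand Ctf1 fell by 1.41. OSMI over rhWnt3a called 2 of the 14, both lower: Lif at -0.93 and Socs3, the feedback inhibitor of this pathway, at -0.85. Against vehicle 5 were called, with Ctf1 at -1.97, the cytokine Clcf1 at -0.64, Lifr at 1.41 and Lif at 1.03.

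Of the other secreted factors 20 were tested, and 14 were called with rhWnt3a, 5 higher and 9 lower. Il33, an alarmin cytokine, had 1, 0 and 2 reads with vehicle, 50, 41 and 59 with rhWnt3a, and 5, 14 and 6 with OSMI added, so the groups did not overlap. No fold against vehicle is given, its libraries being at or under the limit of 3 counts. Relative to rhWnt3a, Il33 fell by 2.59 with OSMI (SE 0.46, edgeR adjusted p = 0.0124). Also higher with rhWnt3a were Fgf2 (2.21) and Efnb2 (1.28), a ligand in contacts of osteoclasts and osteoblasts. Among the largest falls were those of Il7 (-2.56) and the chemokine Ccl2 (-2.44), which attracts monocytes. Il7 had 28, 31 and 23 reads with vehicle, 4, 5 and 5 with rhWnt3a, and 7, 8 and 2 with OSMI added. The values of Il7 in this paragraph therefore rest on few reads. Sfrp1, a Wnt antagonist that also binds RANKL, had 18, 26 and 12 reads with vehicle and 3, 7 and 1 with rhWnt3a, and its fall of -2.36 rests on these few reads: it was -1.93 without rhWnt3a replicate 3 and -3.16 without rhWnt3a replicate 2. With OSMI over rhWnt3a, 6 were called. Efnb2 fell by 1.34 (edgeR adjusted p = 0.00304), Igf1 by 1.86, and the chemokine Cx3cl1 rose by 1.09 (adjusted p = 0.00208). Against vehicle 14 were called, 4 higher and 10 lower, with Igf1 at -2.38, Il7 at -2.29, Ccl2 at -2.16, Il33 among the higher, Fgf2 at 1.62 and Flt3l at 0.77.

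Of 5 sheddases tested, which cut ligands such as RANKL and CSF1 from the cell surface or degrade matrix, Mmp3 (stromelysin) was called. It had 48, 44 and 70 reads with vehicle, 195, 296 and 264 with rhWnt3a and 73, 48 and 51 with OSMI added, and the rhWnt3a libraries were above all others. It rose by 2.19 with rhWnt3a (SE 0.24, edgeR adjusted p = 0.000451) and fell by 2.13 with OSMI (adjusted p = 0.00208), and none of the 5 was called for rhWnt3a with OSMI against vehicle. Of 3 tested receptors and binding partners, Ptprz1, a phosphatase that binds IL-34, fell by 1.79 with rhWnt3a (edgeR adjusted p = 0.000166), rose by 1.10 with OSMI and stood at -0.69 against vehicle. Sdc1, a syndecan that binds IL-34, fell by 0.72 with OSMI over rhWnt3a and was 0.87 lower with rhWnt3a and OSMI than with vehicle.

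Among 21 tested transcription factors 7 were called with rhWnt3a, or 33.3% beside 8.78% of all tested genes. Lef1, a partner of β-catenin, rose by 2.28, and Fosl2 by 0.88. Tcf7, another such partner, was called higher, with 1, 1 and 4 reads with vehicle, 13, 11 and 19 with rhWnt3a and 5, 9 and 9 with OSMI added, and no fold is given because its mean vehicle level, 0.117 CPM, is under the limit of 3 counts. Lef1 had 7, 6 and 13 reads with vehicle, 44, 39 and 46 with rhWnt3a and 13, 10 and 28 with OSMI added. Its difference with OSMI from rhWnt3a was -1.35 (edgeR adjusted p = 0.086). Without rhWnt3a with OSMI replicate 3 it was -1.90 (adjusted p = 0.0258), and the other 8 of 9 fits without 1 library gave no call. Lower were Fos (-1.59), an AP-1 subunit, Tcf7l1 (-1.25), a repressor of the TCF family, and Nfkb2 (-0.73). With OSMI over rhWnt3a, Fosl1 (1.25) and Nfkb2 (0.81) were called, or 9.52% beside 4.74% of all tested genes. Against vehicle the called genes were Tcf7l1 (-1.25), Fos (-1.20) and Fosl2 (0.74). They are 14.3% of the 21, which is near the 14.2% of all tested genes.

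The number of related genes called for OSMI on top of rhWnt3a varied with the libraries used. It was 17 with all libraries, and 11, 10 and 5 without rhWnt3a replicate 1, 2 or 3. Without rhWnt3a with OSMI replicate 1 or 2 it was 7 and 9, and without the 3 libraries that stood apart 36. The share of all tested genes called in each of these fits is not given here, so the numbers describe the related genes only. Of those named, Efnb2, Cx3cl1, Mmp3 and Ptprz1 were called in all 18 alternatives, of which those that only loosen the call rule could not lose a call. In the comparisons with vehicle, the calls of Ctf1, Il6ra, Sfrp1, Tcf7l1, Nfkb2, Tcf7 and Fosl2 with rhWnt3a, and of Ptges, Ptger4, Clcf1, Il33, Flt3l, Ptprz1, Tcf7l1, Fos and Fosl2 with rhWnt3a and OSMI, were lost in at least 1 fit that left out a single library, and those of the other named related genes were not. With rhWnt3a these losses arose on leaving out any vehicle or rhWnt3a library or, for Sfrp1, rhWnt3a with OSMI replicate 1, at edgeR adjusted p of 0.0534 to 0.17. With rhWnt3a and OSMI they arose on leaving out any library but rhWnt3a replicate 2, at 0.0516 to 0.132.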

How the data were processed

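The 9 libraries of poly-A RNA, from ST2 cells, comprised 3 a group (vehicle, rhWnt3a, rhWnt3a with OSMI). Per the labels, the authors made the counts with CASAVA, fastp, HISAT2 2.0.5 and featureCounts 1.5.0-p3 on mm10. Strandedness and the annotation release are not given in the sources used here. The deposited counts are whole reads per gene, without normalization, and the deposited FPKM are the authors' values per length. The 15 columns of the authors' own comparisons (group means, log2 fold changes, p-values) were not used. Tests used edgeR 4.0.16 under R 4.3.3, with these steps: filterByExpr (minimum count 10, minimum total 15), TMM scaling, glmQLFit on all 9 libraries with 3 groups and no covariates, and the two-sided glmQLFTest for each pair of groups, with Benjamini-Hochberg adjustment over 14004 genes. Standard errors and 95% intervals came from that fit, and the common dispersion was 0.0452. Log2 CPM used a prior count of 2. The fold threshold follows the study's methods, applied here with adjusted p. Totals of 16135898 to 17583945 reads put the limit of 3 counts at 0.170 to 0.191 CPM. The scripts were tested on simulated data. Alternatives were other scalings, no filter, DESeq2 1.42.0, fewer libraries, a replicate block and other call rules. All 6 genes were described in every comparison. From each related list, the up to 3 called genes with the largest rise and the up to 3 with the largest fall were named, and for each tested gene the 3 genes with the highest correlation and a mean log2 CPM above 1. Some genes that this rule selects are not reported here. The genes and lists were chosen with earlier results of these data known. Near-identical stretches were searched with BLAST 2.17.0.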

Additional observations from a re-analysis of the deposited data

How the results depend on the processing

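The number of the 5 tested genes called was 1 for rhWnt3a against vehicle and became 2, by the addition of Lrrc17, with the DESeq2 Wald test (0.958, adjusted p = 0.0182) and with unadjusted p. Over fits without 1 library it was 1 to 2. For OSMI over rhWnt3a and for rhWnt3a with OSMI against vehicle, the numbers stayed within 1.5 times of 2 and 4. The difference of Csf1 for rhWnt3a against vehicle, -0.11, was -0.265 to 0.0887 over fits without 1 library, the latter without vehicle replicate 3 and 0.137 without the 3 libraries that stood apart, not called in any of these fits. Il6 for OSMI over rhWnt3a was called with no filter on low counts (-1.99, edgeR adjusted p = 0.0177) and gave no value in the fit of the 6 libraries compared, where it did not pass the filter. For libraries of equal number, departures from the mean of the group correlated at -0.49 to 0.44. In the 3 comparisons 2, 2 and 0 of 6 libraries correlated best with their own number. Departures within a group of 3 depend largely on the 1 library that stood apart, so these values could not decide whether the replicate numbers pair the libraries. With the replicate block, calls among the related genes for OSMI over rhWnt3a were 9 instead of 17, and those of the 5 tested genes were the same: Tnfrsf11b with rhWnt3a (adjusted p = 0.00263), Csf1 (0.0265) and Lrrc17 (0.00889) with OSMI over rhWnt3a, and 4 against vehicle. Those 17 calls became 29 with unadjusted p, 36 without the 3 libraries that stood apart, and 5 to 22 without 1 library. The related genes called against vehicle numbered 25 to 39 (rhWnt3a) and 20 to 39 (rhWnt3a with OSMI) over the alternatives. For the alternatives, the share called of all tested genes is not given here. On raw counts not divided by length, Csf1 made up 95%, 95.5% and 98.4% of the reads of Csf1 and Il34. The causes of these shifts were not tested. Lrrc17 with OSMI and Il6 rest on few reads, and Tnfsf11 had 1 read in all 9 libraries, so depth limits their values.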
